A study of Rattus norvegicus with 4 samples.

Results

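The Hox genes of the rat were followed in 4 single-cell libraries of wild-type (WT) Rattus norvegicus, 2 of skin and 2 of subcutaneous fascia, the loose connective tissue beneath the skin. The members are all genes of the count table whose symbol is Hox followed by a cluster letter from a to d and a paralogue number. This rule found 37 of 30560 genes, with 10 in the HoxA cluster and 9 each in HoxB, HoxC and HoxD. The RefSeq table lists 39 such symbols, and Hoxa10 and Hoxb2 were not analysed here. The study compared the cells of skin with those of fascia, and its title places the fascia at the abdominal midline. Age, sex, strain and the body site of the skin are not given in the sources used here, so tissue and body site cannot be told apart. No label says that the libraries come from separate animals, so p-values measure the spread between libraries.

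Hox genes encode homeodomain transcription factors. They lie in clusters in the order in which they are used along the body, with low paralogue numbers towards the head and high ones towards the tail. Adult fibroblasts and some other cells keep a combination of Hox genes that marks their place in the body, often called a Hox code. Hox proteins bind DNA together with TALE homeodomain cofactors of the Pbx, Meis and Pknox families, and Polycomb and Trithorax complexes hold the clusters silent or active.

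Tissue was digested with collagenase and elastase, per the labels, and the cells were run on the 10x Genomics platform, which counts unique molecular identifiers (UMIs), that is, distinct RNA molecules, at the 3′ end of transcripts. After filtering, the libraries skin 1, skin 2, fascia 1 and fascia 2 kept 6991, 14026, 6617 and 6811 cells, with median depths of 8872, 2498, 12701 and 10321 UMIs in that order. Pairs of libraries shared between 0.22% and 0.58% of the smaller library's barcodes. Cells were placed in a class when they carried at least 3 of its markers and at least 2 more than of any other class. In the same order there were 438, 641, 2722 and 743 fibroblasts. Mural cells, a class named for the contractile cells of vessel walls, numbered 60, 253, 929 and 1711, and endothelial cells 203, 175, 521 and 886. The mural markers include general smooth muscle genes, and 58, 252, 924 and 1703 mural cells carried at least 2 smooth muscle markers. Smooth muscle outside vessels could therefore not be told apart from vessel wall in this class. Keratinocytes, the epithelial cells of epidermis and hair follicle, numbered 5651 and 10380 in the skin libraries but 0 and 5 in the fascia libraries, so they were described in skin alone. UMIs were summed over the cells of a class in each library and are given in CPM, counts per 1000000 UMIs of that class and library. The tests use edgeR's TMM scaling, which corrects for differences in RNA composition and shifts fascia against skin, relative to CPM, by -0.23, -0.43 and -0.43 on the log2 scale in fibroblasts, mural cells and endothelial cells. Levels below are in CPM and log2 differences come from the fits. A summed level does not tell fewer expressing cells from less RNA per cell. Skin cells of the other classes carried more UMIs of keratinocyte markers than fascia cells did, and the part of this in the results was not tested. Results were also computed in cells without such a UMI, which leaves fewer cells. The 8 keratinocyte markers summed to 111 and 422 CPM in skin fibroblasts against 15.2 and 10.3 in fascia fibroblasts, where 4 and 5 of the 8 were at 0, and to 11510 and 14040 CPM in keratinocytes themselves.

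Promoters are shown for 4 members on which the results turn. RefSeq, on the GRCr8 assembly, gives the 250 bases before and 50 bases after the start for 19 of the 37 genes. Hoxa2, Hoxa7 and Hoxd4 were higher in fascia than in skin endothelium, and Hoxc4 belongs to the cluster that was nearly silent in endothelium. Capitals mark a match to TGATTNAT, a paired PBX and HOX binding motif, on either strand, and the sequences lie at chr4:82595643-82595942 (minus strand), chr4:82648192-82648491 (minus strand), chr3:80021636-80021935 (plus strand) and chr7:136048809-136049108 (plus strand).
Hoxa2: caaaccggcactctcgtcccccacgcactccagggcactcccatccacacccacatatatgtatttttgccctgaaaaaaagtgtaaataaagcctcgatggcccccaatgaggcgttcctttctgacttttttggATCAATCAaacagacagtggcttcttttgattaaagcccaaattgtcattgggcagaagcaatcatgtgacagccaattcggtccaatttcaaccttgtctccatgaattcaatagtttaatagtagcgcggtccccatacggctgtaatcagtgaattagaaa
Hoxa7: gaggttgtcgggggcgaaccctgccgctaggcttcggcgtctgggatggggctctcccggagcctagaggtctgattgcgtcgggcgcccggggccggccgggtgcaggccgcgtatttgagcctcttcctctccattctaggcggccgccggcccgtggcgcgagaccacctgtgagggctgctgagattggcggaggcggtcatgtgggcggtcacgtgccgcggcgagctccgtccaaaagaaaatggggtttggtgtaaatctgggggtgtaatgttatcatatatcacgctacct
Hoxd4: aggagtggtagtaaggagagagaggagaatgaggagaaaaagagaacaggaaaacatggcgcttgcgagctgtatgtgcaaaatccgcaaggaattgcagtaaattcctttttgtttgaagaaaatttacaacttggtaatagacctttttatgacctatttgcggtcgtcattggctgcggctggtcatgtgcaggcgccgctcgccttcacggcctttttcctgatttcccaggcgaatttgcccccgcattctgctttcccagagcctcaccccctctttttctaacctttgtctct
Hoxc4: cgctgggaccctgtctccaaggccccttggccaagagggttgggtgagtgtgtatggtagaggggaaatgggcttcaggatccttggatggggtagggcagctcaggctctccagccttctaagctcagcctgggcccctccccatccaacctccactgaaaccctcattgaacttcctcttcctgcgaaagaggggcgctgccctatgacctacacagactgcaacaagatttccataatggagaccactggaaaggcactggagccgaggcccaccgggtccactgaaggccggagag
Of these 4, Hoxa2 alone held the motif. Over the 19 Hox promoters, 2 (10.5%) held TGATTNAT and 1 (5.26%) the homeodomain core TAATTA, which reads the same on both strands. The shares over all 33469 promoters of the same length were 3.18% and 5.36%. Hox promoters had a median GC content of 62.7% against 51.7% over all promoters, and a ratio of observed to expected CpG of 0.818 against 0.392. Hoxc4 had a CpG ratio of 0.230, the lowest of the 19.

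Combinations of Hox genes differed between the classes, with those of fibroblasts and mural cells close to each other. Fibroblasts and mural cells combined HoxA, HoxC and HoxD genes, endothelial cells combined HoxA, HoxB and HoxD genes, and keratinocytes combined HoxA genes with Hoxc8 and some HoxB. The summed level of all Hox genes was 169, 201, 280 and 233 CPM in fibroblasts of skin 1, skin 2, fascia 1 and fascia 2. Mural cells had 239, 230, 302 and 324 CPM in the same order. Endothelial cells had 198, 271, 439 and 465 CPM, and keratinocytes 131 and 148 CPM in the skin libraries. In CPM both fascia libraries lay above both skin libraries in all 3 classes, with log2 ratios of 0.47, 0.42 and 0.95. With TMM scaling the sums became 199.9, 199.5, 256.0 and 217.8 in fibroblasts, 278.0, 267.9, 261.2 and 278.6 in mural cells and 253.4, 287.0, 368.2 and 414.5 in endothelial cells. The mural libraries then overlapped (log2 ratio -0.0165), and the ratio was 0.25 in fibroblasts and 0.53 in endothelial cells. Immune cells, gated in the same way, had 2.78, 4.00, 7.43 and 7.05 CPM, which gives the level in cells not known for a Hox code of position.

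**Figure D1:**
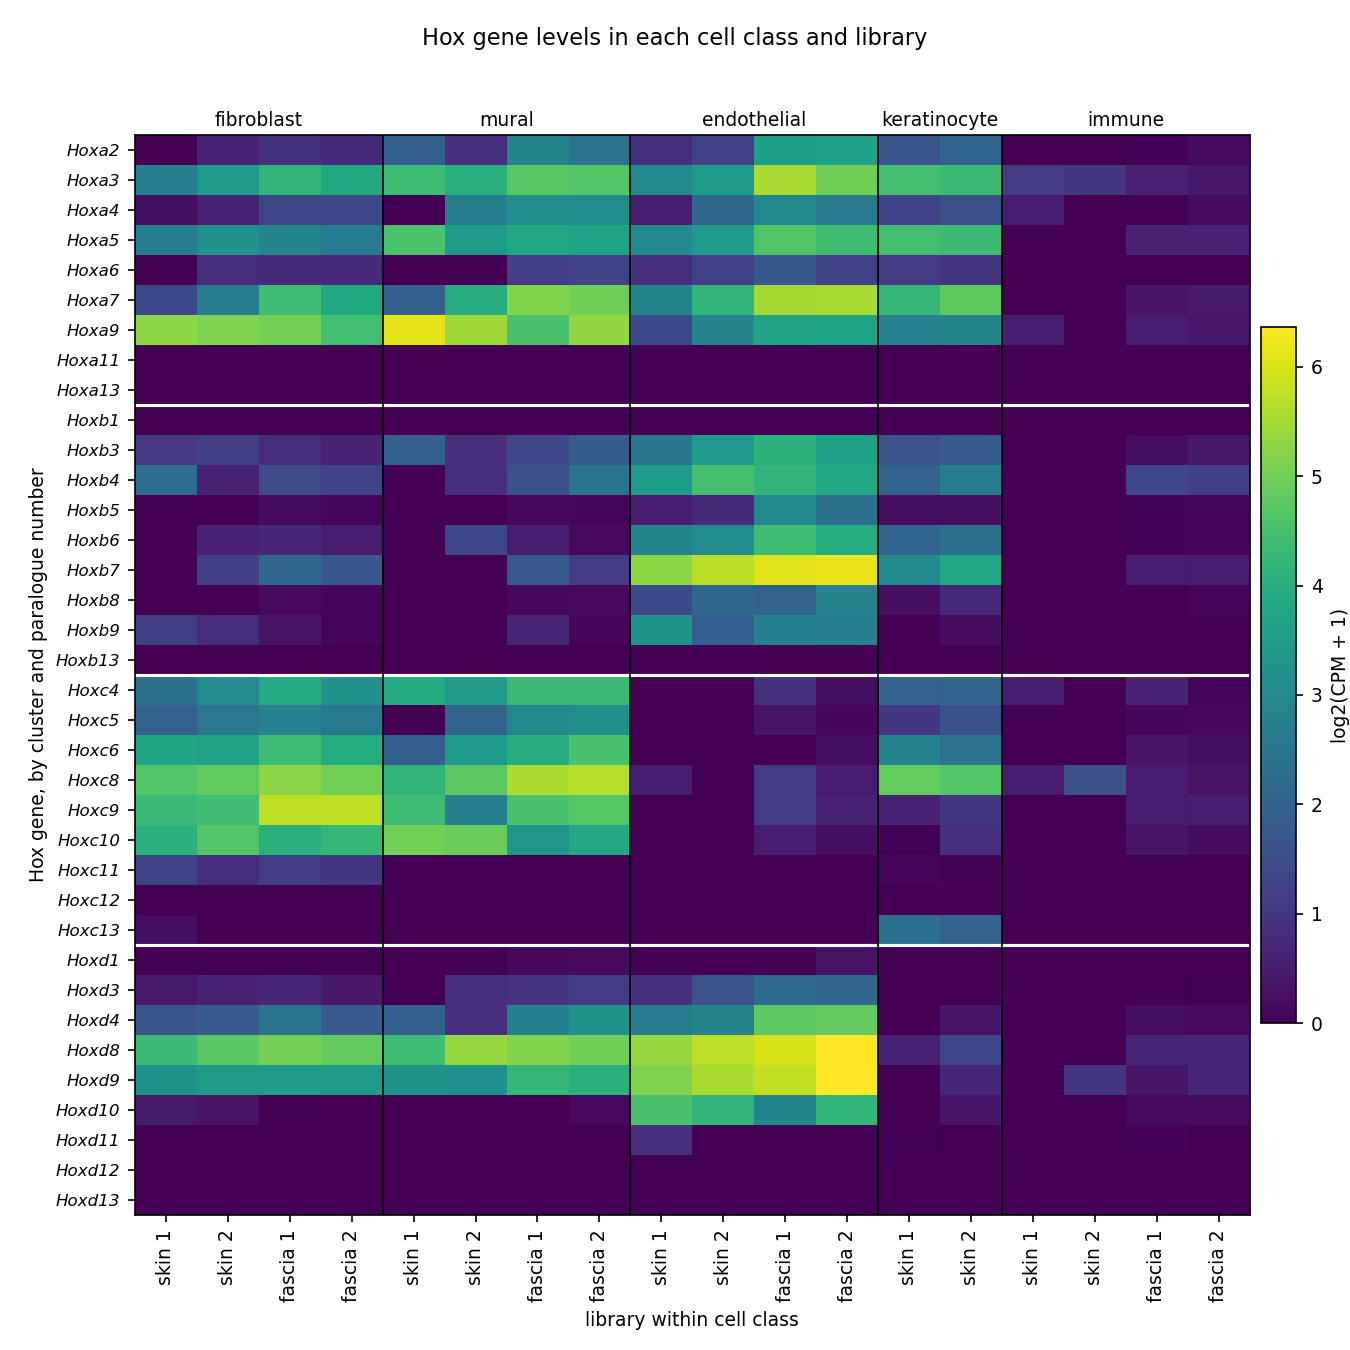
Level of the Hox genes shown (vertical axis, by cluster) in each cell class and library (horizontal axis), as log2(CPM + 1) on the colour scale. Hoxc4 to Hoxc10 are dark in the 4 endothelial columns and mostly bright in fibroblasts and mural cells. Hoxc11 to Hoxc13 are at 1.49 CPM or less in these classes. Hoxb7 is bright in endothelial cells, at 38.1 to 72.02 CPM.

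**Figure D2:**
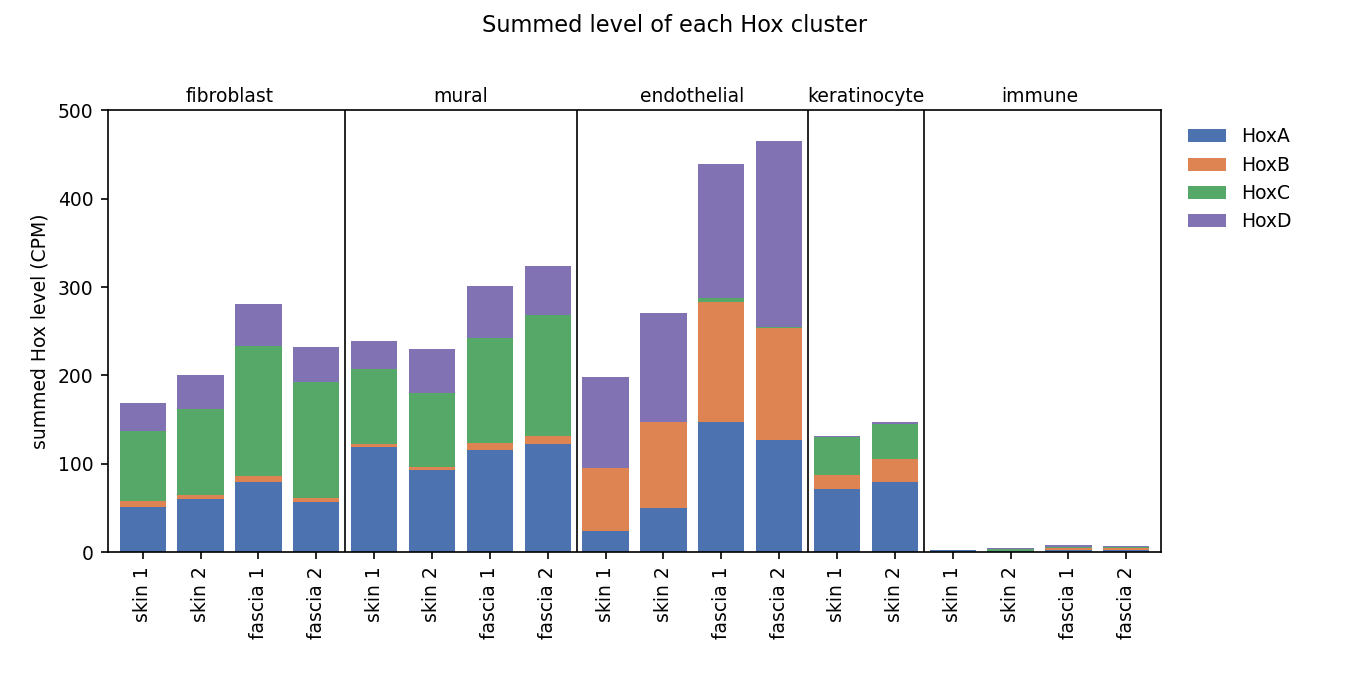
Summed level of the HoxA, HoxB, HoxC and HoxD clusters in CPM (vertical axis, stacked) for each cell class and library (horizontal axis). Endothelial totals run from 198 to 465 CPM with almost no HoxC, and immune cells stay under 8 CPM.

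Fibroblasts drew most on HoxC. HoxC genes made up 47.4% and 48.2% of Hox UMIs in skin and 52.4% and 56.2% in fascia, HoxA genes 24.3% to 30.4%, HoxD genes 16.9% to 19.4% and HoxB genes 2.09% to 3.74%. Hoxc9, a gene of thoracic identity, was at 19.0 and 20.2 CPM in skin against 53.3 and 52.8 CPM in fascia. Hoxa9, a trunk gene also used in blood-forming and vascular cells, was at 38.1 and 33.9 CPM in skin against 31.6 and 20.7 CPM in fascia. Hoxc8, a thoracic gene next to Hoxc9, was at 23.8 and 27.1 CPM in skin against 37.2 and 31.2 CPM in fascia. In CPM fascia lay above skin for Hoxc9 and Hoxc8 and below it for Hoxa9, with no overlap in each case. Hoxd8 and Hoxc10 followed at means of 22.6 and 20.0 CPM in skin against 29.7 and 16.6 CPM in fascia, then Hoxc6 at 12.4 and 17.1 CPM. Hoxc6 is reported with care, because RefSeq shows its gene model spanning Hoxc4 and Hoxc5, and the authors' counting could split reads among them.

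Mural cells had nearly the same code with more HoxA. HoxA genes held 50.0% and 40.3% of Hox UMIs in skin and 38.5% and 37.9% in fascia, and HoxC genes 35.7% to 42.1%. Hoxa9 was at 68.2 and 43.0 CPM in skin against 22.2 and 38.6 CPM in fascia, lower in both fascia libraries. Hoxc8 was at 17.04 and 26.0 CPM in skin against 46.9 and 49.7 CPM in fascia, and Hoxd8 at 19.9 and 39.8 CPM in skin against 34.6 and 30.9 CPM in fascia. Hoxc8 did not overlap between tissues and Hoxd8 did. Hoxa3, which patterns the pharyngeal region, stood at means of 17.6 CPM in skin against 24.9 CPM in fascia. Skin 1 is the thinnest point, with 84 Hox UMIs from 60 cells.

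Endothelial cells were led by Hoxd8, Hoxb7 and Hoxd9. Hoxd8 was at 40.2 and 51.9 CPM in skin against 62.2 and 81.4 CPM in fascia. Hoxb7 was at 38.1 and 51.2 CPM in skin against 66.5 and 72.02 CPM in fascia, and Hoxd9 at 33.9 and 46.4 CPM in skin against 53.8 and 80.3 CPM in fascia. In CPM each of these genes was higher in both fascia libraries than in both skin libraries. Hoxd10, a gene of more posterior position, was at 22.2 and 17.3 CPM in skin against 6.64 and 17.6 CPM in fascia, with overlap. In skin 2, 17 of its 25 UMIs came from 28 cells with lymphatic markers, and the remaining endothelial cells were at 21.7 and 6.37 CPM in skin against 6.75 and 17.5 CPM in fascia. HoxC genes gave 1 and 0 UMIs in the skin libraries and 27 and 18 in the fascia libraries, or 0.42, 0, 3.98 and 1.57 CPM. In immune cells HoxC summed to 0.79, 2.00, 2.00 and 1.22 CPM, so fascia 1 alone had an endothelial level above the highest of these. With 0 of 1445035 endothelial UMIs in skin 2, a HoxC level of up to 2.08 CPM is allowed.

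Keratinocytes in skin were led by Hoxc8 at 27.9 and 24.5 CPM, Hoxa7 at 17.9 and 26.8 CPM, Hoxa3 at 21.5 and 19.7 CPM and Hoxa5 at 20.8 and 19.7 CPM. HoxA genes made up 54.7% and 53.8% of their Hox UMIs. HoxD genes were nearly missing, with 0.593 and 2.84 CPM in all. Hoxb7 stood at 7.11 and 13.2 CPM and Hoxa9 at 6.12 and 6.44 CPM. Hoxc13, a regulator of hair keratin genes, was at 3.98 and 3.03 CPM, and no other class held more than 0.2 CPM.

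The comparison of classes within libraries asked whether these codes differ beyond the spread between libraries. Of 23 Hox genes tested between fibroblasts and endothelial cells, 21 were called at an adjusted p under 0.05 in edgeR's quasi-likelihood test, against 37.9% of all genes (20.1% higher and 17.8% lower in fibroblasts). Outside HoxA the direction followed the cluster. All 6 tested HoxC genes were higher in fibroblasts, and all 6 tested HoxB genes and all 4 tested HoxD genes were lower. Of the HoxA genes, Hoxa9 was higher, Hoxa2, Hoxa4, Hoxa5 and Hoxa7 were lower, and Hoxa3 was not called. Within HoxC the log2 differences ran from 4.80 (SE 0.50) for Hoxc4 to 7.56 (SE 0.63) for Hoxc6, and Hoxc9 differed by 6.27 (SE 0.43, adjusted p = 1.2e-05). Hoxc6 had 0, 0, 0 and 2 endothelial UMIs in skin 1, skin 2, fascia 1 and fascia 2. The size of its difference is therefore uncertain, and it ran from 4.01 to 10.3 over the alternatives. The HoxC sum was 36.9 times (95% counting interval 25.3 to 56.0) and 83.3 times (52.5 to 141) as high in fibroblasts as in endothelial cells of the fascia libraries. The skin libraries had 1 and 0 endothelial HoxC UMIs. This gave 191 times (34.1 to 7562) in skin 1, and a lower end of the same interval of 37.7 times in skin 2. Against a floor of 3 UMIs per library the ratio in skin 2 was 46.6, which leaves out the counting error of the fibroblast UMIs.

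HoxB and HoxD showed the opposite side of this split. The HoxB sum in fibroblasts was between 0.0384 and 0.0899 of the endothelial level over the 4 libraries. Hoxb7 differed by -5.14 (SE 0.53, adjusted p = 8.5e-05) on the log2 scale, and Hoxb8 by -5.23 (SE 0.51, adjusted p = 6.9e-05). Hoxb8 had only 0, 0, 5 and 1 fibroblast UMIs in skin 1, skin 2, fascia 1 and fascia 2. Hoxd10 had the widest HoxD difference, -6.996 (SE 0.55, adjusted p = 2.1e-05). It rests on 2, 1, 1 and 0 fibroblast UMIs in the same libraries, so its size is uncertain. Hoxd8 had the narrowest difference, -1.12 (SE 0.20, adjusted p = 0.00255). Hoxd8 was thus shared by fibroblasts and endothelium at levels that differed less than those of its neighbour Hoxd9, at -2.37 (SE 0.21). Over 17 alternatives, Hoxa9 lost its call without skin 2 (adjusted p = 0.0709), Hoxa4 without fascia 1 (0.0627) and Hoxa5 without fascia 1 (0.178) or fascia 2 (0.216). Hoxb8 fell under the low-count filter in 7 of them and Hoxb9 in 1, and the other 16 genes kept their call in all 17.

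**Figure D3:**
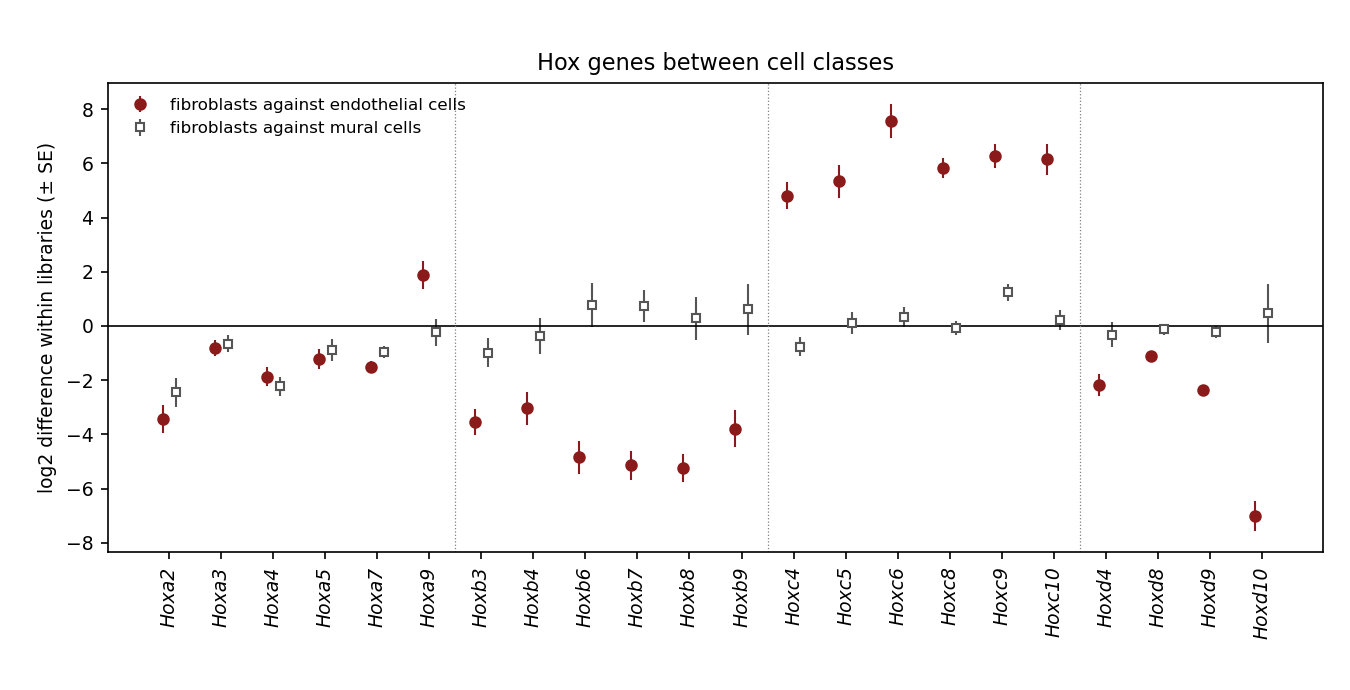
Log2 difference (vertical axis, bars are SE) of tested Hox genes (horizontal axis, by cluster) between fibroblasts and endothelial cells (filled circles) and between fibroblasts and mural cells (open squares), within libraries. HoxC circles lie between 4.80 and 7.56 and HoxB circles between -5.23 and -3.03, while most squares lie near 0.

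Few Hox genes were called between fibroblasts and mural cells. Of 23 tested, 5 were called, against 34.1% of all genes (18.5% higher and 15.5% lower in fibroblasts). In simulated counts this fit found 14% of 2-fold changes, so genes without a call may still differ. Hoxc9 was higher in fibroblasts by 1.25 (SE 0.31, adjusted p = 0.0140) on the log2 scale. Hoxa2, Hoxa4 and Hoxa7 were lower, by log2 differences of -2.44 (SE 0.53), -2.23 (SE 0.36) and -0.96 (SE 0.21), with adjusted p of 0.00763, 0.00178 and 0.00759. Hoxa2 is an anterior member used in the hindbrain and neural crest. Hoxa4 was at 0, 5.68, 7.66 and 7.60 CPM in mural cells of skin 1, skin 2, fascia 1 and fascia 2, and at 0.186, 0.526, 1.59 and 1.65 CPM in fibroblasts. The calls of Hoxa2 and Hoxc9 were lost when fascia 1 or fascia 2 was left out, and that of Hoxa7 without fascia 2. This left 2 calls without fascia 1 and 1 without fascia 2.

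Fibroblasts and keratinocytes were compared in the skin libraries, a comparison chosen after the values were seen. Of 19 Hox genes tested, 11 were called, against 38.5% of all genes (19.6% higher and 19% lower in fibroblasts). Hoxc10, Hoxd9, Hoxc9, Hoxd8, Hoxd4 and Hoxa9 were higher in fibroblasts, by log2 differences from 2.63 for Hoxa9 to 5.97 for Hoxc10. Hoxb7, Hoxb6, Hoxa7, Hoxa5 and Hoxa3 were lower, by -4.05 (SE 0.72) for Hoxb7 to -1.28 (SE 0.31) for Hoxa3. Hoxc8 did not differ beyond its error, at 0.06 (SE 0.28, adjusted p = 0.883). Hoxa3 was not called with Leiden clusters (-0.86, adjusted p = 0.0930) or in the 160 and 246 skin fibroblasts without a UMI of a keratinocyte marker (-0.82, adjusted p = 0.154).

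The comparison of fascia with skin asked which Hox genes differ between the tissues within a class. In fibroblasts 17 Hox genes passed the filter on low counts and 2 were called, both higher in fascia, against 20.2% of all genes called and 7.32% called higher. Hoxc9, at the levels given above, was higher by 1.20 (SE 0.16, adjusted p = 0.0139) on the log2 scale. Hoxa7, a trunk gene, was at 1.67 and 5.52 CPM in skin against 19.8 and 13.65 CPM in fascia. Both fascia libraries lay above both skin libraries, and the log2 difference was 2.08 (SE 0.49, adjusted p = 0.0423). Without a low-count filter Hoxa3 and Hoxb7 were called higher too. In CPM both fascia libraries lay above both skin libraries for 11 of the 17, against 47.4% of all genes, and below for 1, Hoxa9, against 24%. With TMM scaling these counts were 8 and 4, against 36.6% and 32.6%. Those above at 10 CPM or more, besides Hoxc9, Hoxa7 and Hoxc8, were Hoxd8, Hoxc6, Hoxa3, Hoxc4 and Hoxd9, none of them called, and Hoxd9 had a fitted difference of -0.09. The median log2 difference was 0.23 over the tested Hox genes and 0.04 over all genes. The call of Hoxc9 was lost without fascia 1 (adjusted p = 0.0925) or fascia 2 (0.0598), and that of Hoxa7 under 7 of 17 alternatives, among them leaving out skin 1, fascia 1 or fascia 2.

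In mural cells 18 Hox genes were tested and 1 was called, lower in fascia, against 17.2% of all genes (6.67% higher and 10.5% lower). Hoxc10, a gene of lumbar identity, was at 31.2 and 28.4 CPM in skin against 8.92 and 13.35 CPM in fascia. The skin libraries lay well above the fascia libraries, and the log2 difference was -1.80 (SE 0.33, adjusted p = 0.00912). Hoxa7 was at 2.84 and 14.6 CPM in skin against 34.5 and 30.9 CPM in fascia, without a call (adjusted p = 0.107). In CPM, libraries of fascia lay above those of skin for 13 of the 18, against 58.5% of all genes, and below for 2, against 14.9%. With TMM scaling the counts were 8 and 3, against 36% and 27.1%. At 10 CPM or more, the higher ones were Hoxc8, Hoxa7, Hoxa3, Hoxc9, Hoxc4, Hoxc6 and Hoxd9 and the lower ones Hoxa9 and Hoxc10. The smooth muscle gene Actg2 was also higher in skin mural cells, at 210 and 496 CPM against 81.7 and 85.8 CPM, and in mural cells without an Actg2 UMI the difference in Hoxc10 was -1.58 and not called (adjusted p = 0.140). The part of Actg2 in this result was not tested. Hoxc10 was also not called without skin 2 (adjusted p = 0.0891). Keratinocyte markers summed to 145 and 174 CPM in skin mural cells against 2.62 and 2.25 CPM in fascia mural cells, and in mural cells without them, 26 and 124 in skin, Hoxc10 differed by -1.70 (adjusted p = 0.0380). There it was at 6.87 CPM in skin 1, on 1 UMI, and 33.7 CPM in skin 2 against 8.998 and 13.1 CPM in fascia, so the tissues overlapped and skin 2 alone lay above fascia.

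Endothelial cells had the most calls. Of 18 tested, 6 were called and all 6 were higher in fascia, against 20.9% of all genes called and 8% called higher. Hoxd4 was at 5.02 and 6.23 CPM in skin against 26.0 and 27.6 CPM in fascia, a log2 difference of 1.83 (SE 0.29, adjusted p = 0.00825). Hoxa7 was at 6.28 and 17.3 CPM in skin against 44.5 and 44.9 CPM in fascia, a difference of 1.60 (SE 0.34, adjusted p = 0.0210). These 2 genes lay apart between the tissues, as did the other 4 called genes.

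Hoxa2, an anterior gene, was at 0.837 and 1.38 CPM in skin endothelium and 10.6 and 11.5 CPM in fascia endothelium. The skin value rests on 4 UMIs in all, and the pooled ratio was 10.7 (95% counting interval 4.12 to 39.7), with a log2 difference of 2.93 (SE 0.51, adjusted p = 0.0107). Hoxb5, known in endothelial precursors, was at 0.418 and 0.692 CPM in skin against 7.08 and 4.27 CPM in fascia. It rests on 2 skin UMIs, with a pooled ratio of 10.2 (2.75 to 85.4) and a log2 difference of 2.92 (SE 0.75, adjusted p = 0.0360). Hoxa3 was at 7.11 and 10.4 CPM in skin against 46.0 and 30.4 CPM in fascia, a log2 difference of 1.71 (SE 0.30, adjusted p = 0.0114). Hoxa5, a gene of the neck and upper trunk, was at 7.11 and 9.69 CPM in skin against 23.75 and 20.5 CPM in fascia, a difference of 0.98 (SE 0.28, adjusted p = 0.0472). Hoxa3 and Hoxa5 are uncertain as separate genes, since RefSeq shows the Hoxa3 model spanning Hoxa4, Hoxa5 and Hoxa6, Hoxb5 overlaps the antisense gene Hoxb5os and Hoxd4 overlaps the microRNA gene Mir10b.

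In CPM, fascia libraries lay above skin libraries for 14 of the 18 tested endothelial Hox genes, against 56% of all genes, and below for 0, against 17.1%. With TMM scaling the counts were 11 and 1, against 36.7% and 31.2%. Besides the called genes, those at 10 CPM or more were Hoxd8, Hoxb7, Hoxd9, Hoxb6, Hoxb3 and Hoxa9. The median log2 difference was 0.90 over the tested Hox genes and 0.07 over all genes. Hoxd4 kept its call under all 18 alternatives. Hoxa5 lost it under 9, among them leaving out skin 1, fascia 1 or fascia 2, Hoxb5 under 8, among them leaving out any of the 4 libraries, Hoxa2 without fascia 2 (adjusted p = 0.0578), and Hoxa7 with a looser gate (0.0554). Keratinocyte markers summed to 92.9 and 250.5 CPM in skin endothelium against 10.3 and 5.93 CPM in fascia, and endothelial cells without a UMI of these markers, 81 and 72 in skin, gave 2 calls in place of 6. With these fewer cells the log2 differences not called were 2.24 for Hoxa2, 1.35 for Hoxa3 and 0.77 for Hoxa5 (adjusted p = 0.122, 0.0919 and 0.215), and Hoxb5 had no UMI in skin against 6.64 and 4.36 CPM in fascia (adjusted p = 0.110). The 2 calls were Hoxd4 (7.17 and 6.88 CPM in skin, 26.7 and 26.65 CPM in fascia) and Hoxa7. Keratinocytes held Hoxa2, Hoxa3, Hoxa5 and Hoxa7 at higher levels than skin endothelium did, and Hoxb5 and Hoxd4 at lower levels. The part of keratinocyte RNA in these differences was not tested.

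**Figure D4:**
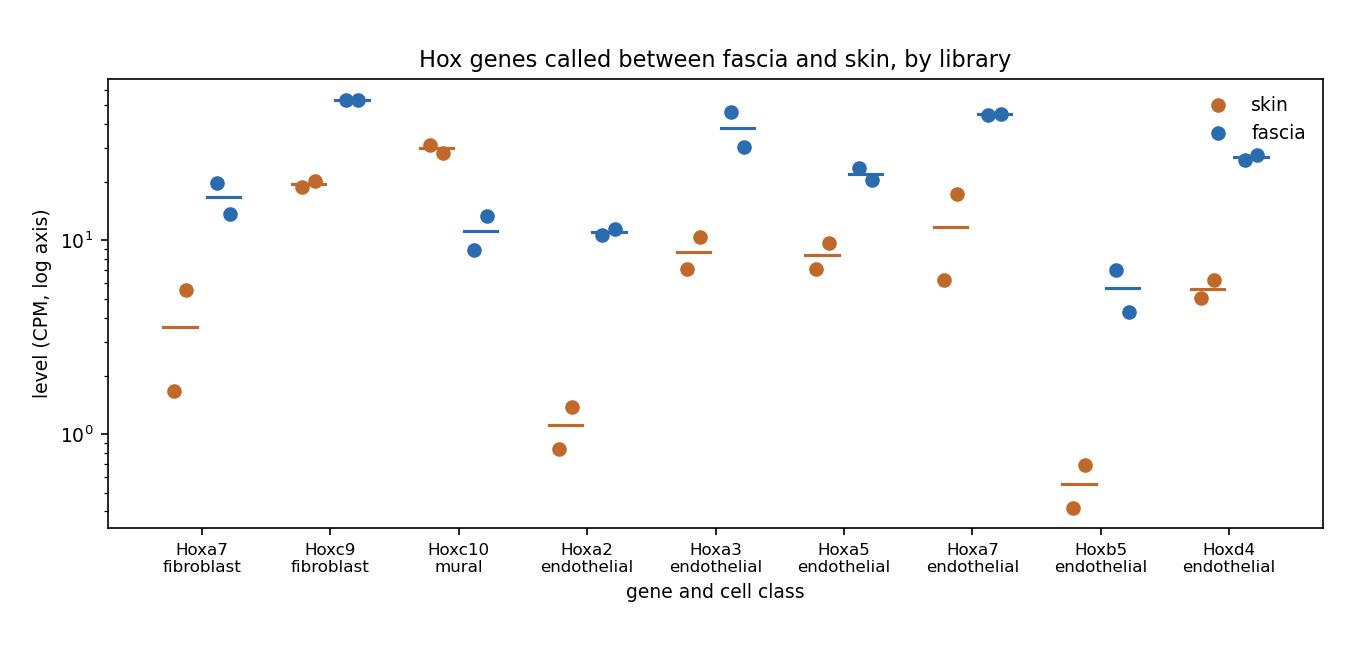
Level in CPM on a log axis (vertical) of the Hox genes called between fascia and skin, with the cell class under each gene (horizontal). Points are libraries and lines are means of 2 libraries, and fascia lies above skin for each gene shown except Hoxc10 in mural cells, at 8.92 and 13.35 CPM.

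Whether the tissue difference itself differs between fibroblasts, mural cells and endothelial cells was tested with an interaction term. Of 25 Hox genes tested, 1 was called, against 14.6% of all genes. For Hoxa5 the fascia to skin difference was 1.58 higher on the log2 scale in endothelial cells than in fibroblasts and 0.03 higher in mural cells than in fibroblasts (adjusted p = 0.0462). Hoxa5 was at 5.58 and 8.68 CPM in skin fibroblasts and 6.40 and 5.04 CPM in fascia fibroblasts, which overlapped. For the other 24 genes, Hoxc9, Hoxc10, Hoxa7 and Hoxd4 among them, a tissue difference that varies between classes was not shown. In simulated counts the interaction test found 66% of 4-fold and 0% of 2-fold changes. The Hoxa5 call was lost without each of the 4 libraries in turn, at adjusted p from 0.0601 to 0.377.

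The tissue difference can also be read as a shift along the clusters. The mean paralogue number over Hox UMIs in fibroblasts was 7.84 and 7.67 in skin against 7.41 and 7.61 in fascia. In mural cells it was 7.43 and 7.37 in skin against 6.66 and 6.81 in fascia, and in endothelial cells 7.39 and 6.997 in skin against 6.26 and 6.77 in fascia. Fascia lay below skin, that is, towards the anterior genes, in each class and without overlap, with differences of -0.24, -0.66 and -0.68. Without the cells with lymphatic markers, the endothelial value of skin 2 lay below that of fascia 2, so the tissues overlapped. The mean paralogue numbers do not depend on the scaling between libraries. Paralogues 10 to 13 made up 13.1% and 12.4% of Hox UMIs in skin mural cells and 2.96% and 4.15% in fascia mural cells. In skin mural cells all of these UMIs, 11 and 35, were of Hoxc10, so this share is not separate from the Hoxc10 call. With 2 libraries against 2, the two-sided exact permutation test gave p = 0.33 for each class, the smallest p it allows. The order of the genes by level stayed similar between tissues, with a Spearman correlation of mean levels across genes of 0.913 in fibroblasts (28 genes), 0.913 in mural cells (27 genes) and 0.919 in endothelial cells (28 genes), over genes that share libraries and are not independent.

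**Figure D5:**
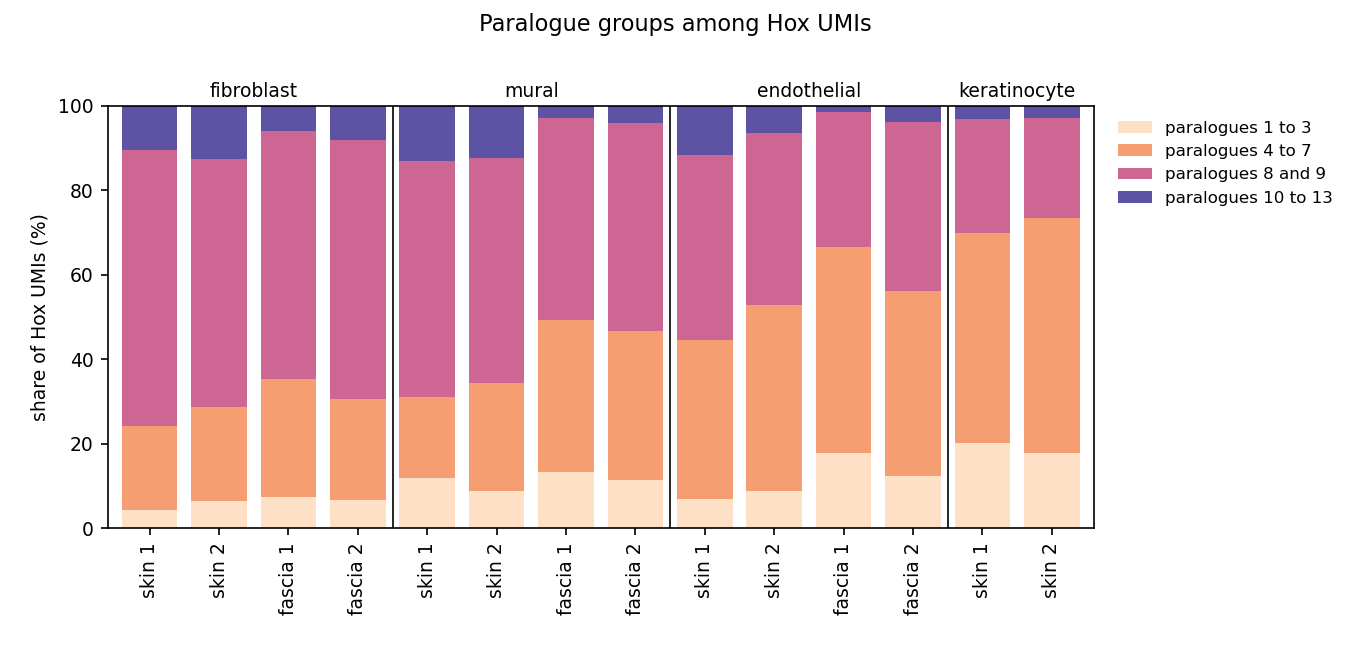
Share of Hox UMIs in percent (vertical axis, stacked) by paralogue group for each class and library (horizontal axis). Paralogues 10 to 13 are smaller in fascia than in skin in fibroblasts, mural cells and endothelial cells.

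Depth differed between libraries, so the share of cells with a Hox UMI, which follows the CPM scale, was taken after thinning each cell to 2000 UMIs and leaving out 10, 141, 32 and 34 shallower fibroblasts. Of fibroblasts, 28.3% and 34.0% in skin against 41.6% and 36.4% in fascia carried a Hox UMI (74.4%, 56.0%, 92.95% and 89.4% unthinned). The mean difference was 7.88 percentage points (exact permutation p = 0.33, the smallest possible). Endothelial shares were 29.9% and 36.4% in skin against 57.4% and 59.1% in fascia. Immune cells, gated in the same way, had 0.862%, 0.546%, 0.996% and 1.22%. They are not a class without Hox genes, as Hoxb4 was at 1.56 and 1.32 CPM in fascia immune cells. For the HoxC cluster alone, 13.3% and 17.8% of skin fibroblasts and 24.5% and 22.6% of fascia fibroblasts had a UMI, against 0 of 201 and 162 skin endothelial cells and 0.201% and 0.115% of fascia endothelial cells.

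The partners and regulators of Hox genes were read in the same fits. Between fibroblasts and endothelial cells, 5 of 8 tested TALE cofactors were higher in fibroblasts, against 20.1% of all genes, and 3 were not called. Meis1 was at 64.9, 73.9, 114.6 and 115.1 CPM in fibroblasts and 0, 0.692, 1.77 and 0.872 CPM in endothelial cells, a log2 difference of 6.69 (SE 0.41, adjusted p = 8e-06). Meis2 differed by 4.38 (SE 0.58) and Meis3 by 4.32 (SE 0.41). Between fascia and skin, the counts of called TALE cofactors stood near those of all genes (20.2% called in fibroblasts, 17.2% in mural cells and 20.9% in endothelial cells) or below them. They had 1 call in each direction of 9 tested in fibroblasts, Meis2 at 0.80 (SE 0.15, adjusted p = 0.0267) and Pknox1 at -0.98 (SE 0.18, adjusted p = 0.0236). They had 1 call of 8 in mural cells, and no call among 5 in endothelial cells, where DESeq2 also called 0. At an unadjusted p under 0.05, edgeR gave 5 of 9 in fibroblasts, 4 of 8 in mural cells and 0 of 5 in endothelium. Over all genes it gave 4849 of 12814, 3841 of 11942 and 4415 of 11456 in these classes.

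Of the Polycomb list, Ezh2, the histone methyltransferase used in dividing cells, was lower in fascia in all 3 classes, by -2.81 in fibroblasts, -1.40 in mural cells and -2.78 in endothelial cells. Other members were called higher in fascia, Cbx8 in fibroblasts by 1.88. In endothelial cells Ezh1, Jarid2 and Cbx7 were called higher, by 1.15, 0.96 and 1.49. Besides Ezh2, Phc2 was called lower in mural cells, by -1.36, and Suz12 was called lower in endothelial cells. Counts of the list were 1 higher and 1 lower of 14 in fibroblasts, 2 of 13 in mural cells, both lower, and 3 higher and 2 lower of 13 in endothelial cells. The first pair of counts lay near or under the 20.2% and 17.2% of all genes called there, and in endothelial cells 8% of all genes were called higher and 12.9% lower. Kdm6b, a demethylase that removes the Polycomb mark, was lower in fascia by -1.88, -2.33 and -2.75 in the same classes. Its list, of Trithorax genes and demethylases, had 1 call of 9 in fibroblasts, lower, and 2 of 9 in mural cells, both lower. In endothelial cells it had 1 call in each direction of 9, with Ash2l higher by 0.84. Of the upstream regulators, the retinoic acid receptor Rarb was higher in fascia fibroblasts, at 42.2 and 30.35 CPM against 5.95 and 8.68 CPM in skin, by 2.10 (SE 0.26, adjusted p = 0.0111). Gmnn, an inhibitor of DNA replication that can also bind Hox proteins, was lower in fascia mural cells by -2.40 (SE 0.34) and in fascia endothelial cells by -1.85 (SE 0.34). These were the only calls of the upstream list, 1 of 7 in fibroblasts, 1 of 7 in mural cells and 1 of 5 in endothelial cells. Over all genes 20.2%, 17.2% and 20.9% were called in these classes, and the counts of both lists lay near or under these shares.

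Some members were silent or nearly so. Hoxa11, Hoxa13, Hoxb1, Hoxb13, Hoxc12 and Hoxd12 had no UMI in the kept cells, which allows up to 0.00933 CPM over the 321592777 UMIs of all 4 libraries. Hoxd1, Hoxd11 and Hoxd13 had 9, 6 and 3 UMIs. Of the 37 genes, 31 had a UMI in kept cells, and those not tested in a class had too few. All of the most posterior members, paralogues 11 to 13, were at or near 0 except Hoxc11, with 84 UMIs, and Hoxc13, with 475. Hoxc11 was found in fibroblasts at 1.49, 0.789, 1.22 and 1.04 CPM, and the other classes were at or near 0. Intervals and floors cover counting error only.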

How the data were processed

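The authors deposited raw UMI counts per gene and cell barcode for each of the 4 libraries. The submitters' processing notes name Cell Ranger 6.0.1, STAR and the builds mRatBN7.2 and GRCh38.p13, without their roles, and the matrix header names Cell Ranger 7.0.0. Whether intronic reads or strand were used in counting is not given in the sources used here. A barcode had to show 500 genes or more, with mitochondrial UMIs no higher than 20%. Scrublet, run in Scanpy 1.11.5, marked doublets. In the skin libraries its threshold found fewer than 0.5% of barcodes, so the highest scores were dropped there at a rate of 0.8% per 1000 cells. Libraries held between 83852172 and 95777810 UMIs.

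Classes were gated on 8 markers each, of which Flt1 and Cldn5 (endothelial) did not match. Summed counts were tested with edgeR 4.0.16 in R 4.3.3 (TMM, filterByExpr, quasi-likelihood test), and p-values were adjusted over all genes by Benjamini-Hochberg. Fits between classes had the library as a block and used the 12 sums of fibroblast, mural and endothelial cells, with keratinocytes added for the skin libraries. The fits were also tested on simulated data. There the fits between tissues found 10%, 32% and 35% of 2-fold changes in fibroblasts, mural cells and endothelial cells. Counting at transcript ends does not grow with length, so levels were compared between genes without dividing by it. The members, markers and lists were chosen with earlier results of these data known. Genes named are the 6 highest in each class, each one called, and each at 10 CPM or more whose tissues do not overlap, and of list genes at most 3 called per direction. The alternatives were other gates, Leiden clusters, other cell filters, doublets kept, DESeq2 1.42.0, RLE factors, unfiltered genes, the replicate block, thinned sums and each library left out. Single values of some genes are not reported here. After the values were seen, cells without keratinocyte markers, mural cells without Actg2, TMM-scaled sums, a crossed block and the comparison of fibroblasts with keratinocytes were added.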

Additional observations from a re-analysis of the deposited data

Results flagged for a closer look

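The fascia to skin difference of Hoxa5 differed between cell classes in the test of the difference itself, the tissue by class interaction in edgeR (adjusted p = 0.0462). The log2 difference in endothelial cells was 1.58 above that in fibroblasts, and the one in mural cells was 0.03 above it. In the fits of single classes, Hoxa5 differed by 0.98 in endothelial cells (adjusted p = 0.0472), by -0.51 in fibroblasts (adjusted p = 0.277) and by -0.58 in mural cells (adjusted p = 0.367). Keratinocytes, whose markers were found in skin libraries of the other classes, held Hoxa5 at 20.8 and 19.7 CPM, and in the fewer cells without a keratinocyte marker the interaction had an adjusted p of 0.183. RefSeq shows the Hoxa3 gene model spanning Hoxa5.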

How the results depend on the processing

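Of 216 alternative values of the counts, sums and means, 181 kept their direction and stayed within 1.5 times the count or 1 SD. Of 736 alternative values of single genes, 685 kept their call, 51 lost it and 0 reversed. The causes were not tested, except that fewer cells or genes enter by construction. Fibroblast calls between tissues (2) were 1 with a looser gate, Leiden clusters, sub-classes left out or no keratinocyte marker, 4 without a low-count filter, and 0 to 3 with a library left out. Mural calls (1) were 2 with at most 10% mitochondrial UMIs, 0 without Actg2 cells, 3 without a low-count filter and 1 to 2 with a library left out. Endothelial calls (6) were 2 in cells without a keratinocyte marker and 4 to 6 with a library left out. Calls between fibroblasts and mural cells (5) were 1 to 5 with a library left out. The interaction (1) gave 0 with a stricter gate, Leiden clusters, no keratinocyte marker or relative log expression, 2 with DESeq2, 3 without a low-count filter and 0 to 1 with a library left out. Fibroblasts against keratinocytes (11) gave 17 without a low-count filter.

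With TMM-scaled sums, the log2 ratio of the summed Hox level was 0.25 in fibroblasts, -0.0165 in mural cells, where it changed sign, and 0.53 in endothelial cells. The mural ratio (0.42 in CPM) was 0.35 with a looser gate and 0.19 with sums thinned to the smallest library, and the shift in paralogue number (-0.66) was -0.50 with thinned sums. The endothelial ratio (0.95) ran from 0.74 to 1.19 with a library left out. The difference in fibroblast shares (7.88 points) was 4.603 at 1000 UMIs and 14.3 at 4000 UMIs. With the replicate number as a block, calls were 2 in fibroblasts, 2 in mural cells and 4 in endothelial cells. The numbers do not pair the libraries, since deviations of same-numbered libraries correlated at 0.052, -0.055 and -0.199 in these classes, and a crossed block, added after the data were seen, gave 8 endothelial calls. A split of mural cells was not run, as under 20 cells were left, nor was a library left out between fibroblasts and keratinocytes, which leaves no residual degrees of freedom. A lone library of a tissue was assumed to vary like the pair of the other tissue. Skin mural cells (84 and 283 Hox UMIs) limit depth most.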

Other observations

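Hoxc13 was uneven among skin keratinocytes. Cells were split by how many of 11 hair genes (hair keratins, Padi3, Lef1 and Msx2) they carried, a list chosen after the values were seen. Keratinocytes with at least 2 of these genes had Hoxc13 at 22.7 and 10.3 CPM in skin 1 and skin 2, and those with none had 2.18 and 1.31 CPM. The cells with at least 2 were 3.95% and 6.68% of keratinocytes, with 7.0% and 15.1% of their UMIs, and held 39.8% and 51.3% of the Hoxc13 UMIs. Hoxc8 was at 5.50 and 21.7 CPM in these cells and 29.9 and 24.9 CPM in those with no hair gene. The gap in Hoxc8 was thus present in skin 1 and small in skin 2, and it was not tested.

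Fibroblasts with at least 2 dermal papilla markers numbered 206 and 84 in the skin libraries and 35 and 15 in the fascia libraries. Hoxc9 was at 19.9 and 12.7 CPM in those of skin and 54.0 and 59.0 CPM in those of fascia, beside 18.1, 22.2, 53.3 and 52.6 CPM in the remaining fibroblasts. Endothelial cells with at least 2 lymphatic markers numbered 11 and 28 in the skin libraries and 5 and 4 in the fascia libraries. In skin they carried Hoxd8 at 89.3 and 105.7 CPM, Hoxd9 at 67.0 and 137.4 CPM, Hoxd10 at 33.5 and 89.8 CPM and Hoxb7 at 11.2 and 84.6 CPM, on between 1 and 26 UMIs each. The remaining skin endothelial cells had Hoxd8 at 38.3 and 43.8 CPM, Hoxd9 at 32.6 and 32.65 CPM and Hoxd10 at 21.7 and 6.37 CPM. Their Hoxb7 was at 39.1 and 46.2 CPM, above the cells with lymphatic markers in skin 1 and below them in skin 2. In fascia the cells with lymphatic markers had Hoxd8 at 90.9 and 129.4 CPM, Hoxd9 at 36.4 and 71.9 CPM and Hoxd10 at 0 and 28.8 CPM. The remaining fascia endothelial cells had these genes at 61.8 and 81.1, 54.1 and 80.35, and 6.75 and 17.5 CPM.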
